A study of Malus domestica with 9 samples.

Results

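Phenylalanine ammonia-lyase (PAL) was followed in apple peel over the first day of light after the fruit were taken out of their bags. PAL is the first enzyme of the phenylpropanoid pathway: it removes ammonia from phenylalanine and leaves cinnamic acid. Cinnamic acid feeds the flavonoids, among them the anthocyanins that redden apple peel, as well as chlorogenic acid and lignin. Plants carry several PAL genes, and in apple an old duplication of the genome left related (homeologous) chromosomes that hold matching copies. The 4 loci described here were picked by their identifiers in the GDDH13 apple genome annotation. The rule used no expression value, but it was written when earlier results of these data were known. The table lists them as gene:MD01G1106900, gene:MD07G1172700, gene:MD04G1096200 and gene:MD12G1116700, written below without the prefix. MD01G1106900 and MD07G1172700 lie on the homeologous chromosomes 1 and 7, and MD04G1096200 and MD12G1116700 lie on the homeologous chromosomes 4 and 12. They are 4 of the 46558 genes listed, and all 4 passed the filter on low values (a mean of at least 1 FPKM over the libraries), as did 25362 genes in all. The deposited table does not pair identifiers with names. That the loci encode PAL is taken from prior annotation and could not be checked in the data, nor could whether those of a chromosome pair are counterparts. For the same reason other genes of the pathway and markers of the peel were not analysed here, and neither sequences nor coordinates of the loci are given. Further PAL loci among the listed genes could not be looked for, so sums and shares below cover these 4 loci only.

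The series holds 9 RNA libraries of fruit peel (Malus domestica), 3 each at 0 h, 6 h and 24 h of light after unbagging, described by the submitters as biological replicates. All fruit had been bagged, no genotype or other treatment is labelled, and no fruit kept in its bag to 6 h or 24 h is among the samples analysed here, so light cannot be told apart from unbagging or, at 6 h, from the time of day. What a replicate was (a fruit, a tree or a pool) is not labelled, and p-values therefore speak to the spread among the libraries at hand, which may be technical. Levels are FPKM (fragments per kilobase of gene and per M mapped fragments), which are per length and so can be set side by side between copies. The libraries held 15.3 to 19.5 M reads in genes, as recovered from the FPKM values. The third 24 h library stood apart, with a residual spread of 0.403 log2 units (SD), where the others had 0.151 to 0.240, and with reads in genes at 1.21 of its FPKM denominator against 0.911 to 1.03. The changes of each copy at 24 h are therefore also given without it. In bulk peel, fewer cells of a type and less RNA per cell cannot be told apart.

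All 4 copies were higher at 6 h and at 24 h than at 0 h, by very different amounts. The copies on chromosomes 4 and 12 together gave the smaller part of the summed FPKM of the 4 copies at the start and came to make up most of it. MD12G1116700 was 24.9-fold higher at 6 h and 33.2-fold higher at 24 h, and the difference between these was not resolved. MD04G1096200 rose by 12.3-fold at 6 h and stood 89.2-fold above the start at 24 h. MD01G1106900 was the leading copy at 0 h, was 5.53-fold higher at 6 h and was lower again at 24 h. MD07G1172700 rose least at 6 h, by 2.15-fold, and stood 4.43-fold above the start at 24 h. These are ratios of mean FPKM over 3 libraries a time.

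**Figure D1:**
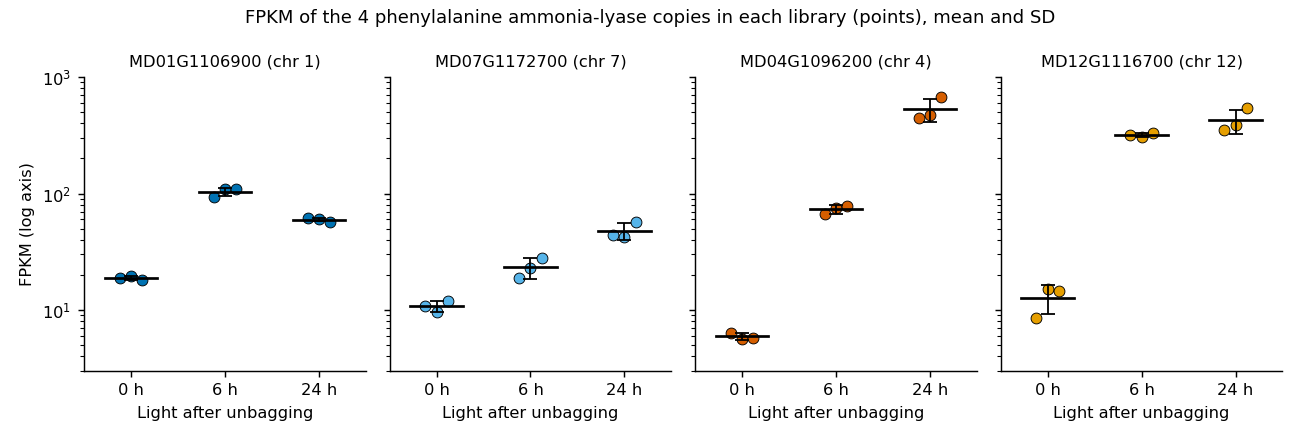
FPKM on a log axis of each PAL copy in every library (points) by hours of light, with the mean (bar) and SD (whiskers, n = 3). MD04G1096200 goes from about 5.95 to 531.0 FPKM in mean, MD12G1116700 reaches 317.3 FPKM by 6 h, and MD01G1106900 is highest at 6 h.

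MD01G1106900, on chromosome 1, was read at 18.9, 19.4 and 18.1 FPKM in the 0 h libraries. At 6 h it stood at 94.1, 108.8 and 109.1 FPKM, and at 24 h at 61.4, 60.1 and 57.5 FPKM. The libraries of no pair of times overlapped, and those of 24 h lay between those of 0 h and 6 h. In means this was 18.8 ± 0.689, 104.0 ± 8.61 and 59.7 ± 2.002 FPKM (SD, n = 3 each). On the log2(FPKM + 1) scale, on which differences of low genes come out smaller than those of FPKM itself, it rose by 2.40 at 6 h (SE 0.0821, limma adjusted p = 1.38e-08) and by 1.61 at 24 h (SE 0.0821, limma adjusted p = 9.86e-08). Between 6 h and 24 h the difference was -0.79 (95% interval -0.97 to -0.61, limma adjusted p = 2.26e-05). That is below the size of 1 log2 unit that a call requires, so by the rule used here the copy was called in neither direction between the light times. It was the copy that differed least between the third 24 h library and the others, at 0.946 of their mean. Without that library the log2 differences at 24 h were 1.64 against 0 h and -0.76 against 6 h.

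MD07G1172700, on the homeologous chromosome 7, had 10.9, 9.59 and 11.9 FPKM at 0 h. The 6 h libraries held 18.7, 22.7 and 28.1 FPKM, and the 24 h libraries 44.2, 42.4 and 56.4 FPKM. Each time lay above the one before without overlap, and the spread at 6 h was wide. Means were 10.8 ± 1.14, 23.2 ± 4.72 and 47.7 ± 7.63 FPKM (SD, n = 3 each). The rise at 24 h against 0 h was 2.04 log2 units (SE 0.155, limma adjusted p = 1.91e-06), and 1.92 without the third 24 h library. The smaller steps lay at the limit of a call, with 1.02 from 0 h to 6 h (95% interval 0.68 to 1.37, limma adjusted p = 0.000324) and 1.02 from 6 h to 24 h (95% interval 0.67 to 1.36, limma adjusted p = 0.000344). Over the alternatives tried the highest limma adjusted p of these steps was 0.00224 and 0.00208, but their size fell below 1 in several. Without the third 6 h library the first step was 0.88, and without the second 0 h library 0.95. Without the third 24 h library the second step was 0.89, and without the first 6 h library 0.88. With each library's summed reads as denominator the steps were 0.97 and 0.87, and neither was then a call, while relative to the median of all tested genes on that scale they were 1.011 and 1.004.

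MD04G1096200, on chromosome 4, was the lowest copy at the start, at 6.40, 5.67 and 5.78 FPKM. It reached 66.6, 75.2 and 78.0 FPKM at 6 h. At 24 h the first and second libraries held 449.4 and 473.1 FPKM and the third 670.6 FPKM. The times were far apart, with the lowest 24 h library at 5.76 times the highest 6 h library. Means were 5.95 ± 0.391, 73.3 ± 5.97 and 531.0 ± 121 FPKM (SD, n = 3 each). The copy rose by 3.42 log2 units at 6 h (SE 0.142, limma adjusted p = 4.56e-08) and by 6.24 at 24 h (SE 0.142, limma adjusted p = 6.38e-10). It also rose from 6 h to 24 h, by 2.82 (SE 0.142, limma adjusted p = 1.18e-07). Without the third 24 h library its mean at 24 h was 461.3 FPKM, 77.5-fold above 0 h, and the log2 differences at 24 h were 6.06 against 0 h and 2.64 against 6 h.

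MD12G1116700, on the homeologous chromosome 12, was the most variable copy at 0 h, at 8.60, 15.002 and 14.7 FPKM. The low first library had 374 reads on this gene and the others 685 and 577. At 6 h it stood at 317.5, 304.1 and 330.4 FPKM. The 24 h libraries held 348.9, 384.7 and 538.8 FPKM, all above those of 6 h. Means were 12.8 ± 3.61, 317.3 ± 13.2 and 424.2 ± 101 FPKM (SD, n = 3 each). It rose by 4.57 log2 units at 6 h (SE 0.208, limma adjusted p = 8.31e-08) and by 4.96 at 24 h (SE 0.208, limma adjusted p = 2.51e-08). The difference between the light times was 0.39 (95% interval -0.07 to 0.86, limma adjusted p = 0.144), so a change there was not resolved. Without the third 24 h library, which held 1.47 times the mean of the others, it was 0.21, and the rise at 24 h against 0 h was 4.78. Without the low first 0 h library the rises against 0 h were 4.33 at 6 h and 4.72 at 24 h.

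**Figure D2:**
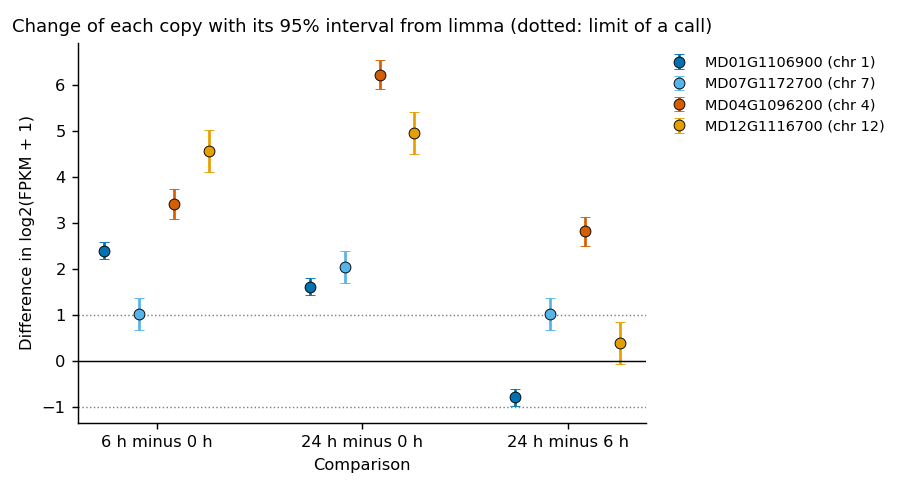
Difference in log2(FPKM + 1) of each PAL copy in the 3 comparisons of times, with its 95% interval from limma (whiskers); dotted lines mark the 1 log2 unit a call requires. All 4 copies lie above 1 against 0 h, with the interval of MD07G1172700 at 6 h reaching down to 0.68; between 24 h and 6 h they run from -0.79 to 2.82.

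Set against all genes, 4 of 4 copies were called higher at 6 h than at 0 h, where 9.36% of the tested genes were (adjusted p under 0.05 and a log2 difference of at least 1). At 24 h against 0 h 4 of 4 were called higher, with 11.9% of the tested genes. At 24 h against 6 h the called copies were MD04G1096200 and MD07G1172700, 2 of 4, with 8.66% of the tested genes called higher, and no copy was called lower, with 7.79% of them. The median difference of the copies was 2.91 log2 units at 6 h, 3.502 at 24 h and 0.71 between the light times, beside 0.01, 0.00 and -0.01 over all tested genes. The libraries of 6 h lay above those of 0 h without overlap in all 4 copies and in 35.8% of the tested genes, and those of 24 h above those of 0 h in all 4 copies and in 34.0% of the tested genes. From 6 h to 24 h, 3 copies lay higher without overlap, with 30.8% of the tested genes, and MD01G1106900 lower, with 28.5%. With the adjusted p alone, without the limit on size, 26.1% of the tested genes would be called higher at 24 h than at 6 h and 23.6% lower. The rise of MD12G1116700 at 6 h was exceeded by 83 genes in the main fit and that of MD04G1096200 at 24 h by 16 genes. These ranks moved with the processing, to 241 and 58 genes with a pseudocount of 0.1 and to 283 and 77 by limma-voom. They were 31 and 14 with a pseudocount of 5. In the main fit the rise of MD07G1172700 at 6 h was exceeded by 2303 genes, and that of MD01G1106900 at 24 h by 1543. The moderated F-test over the 3 times passed an adjusted p of 0.05 in all 4 copies, as in 72.7% of the tested genes, with limma adjusted p from 1.32e-09 for MD04G1096200 to 4.18e-06 for MD07G1172700. The comparisons with 0 h share the 0 h libraries and are not independent.

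**Figure D3:**
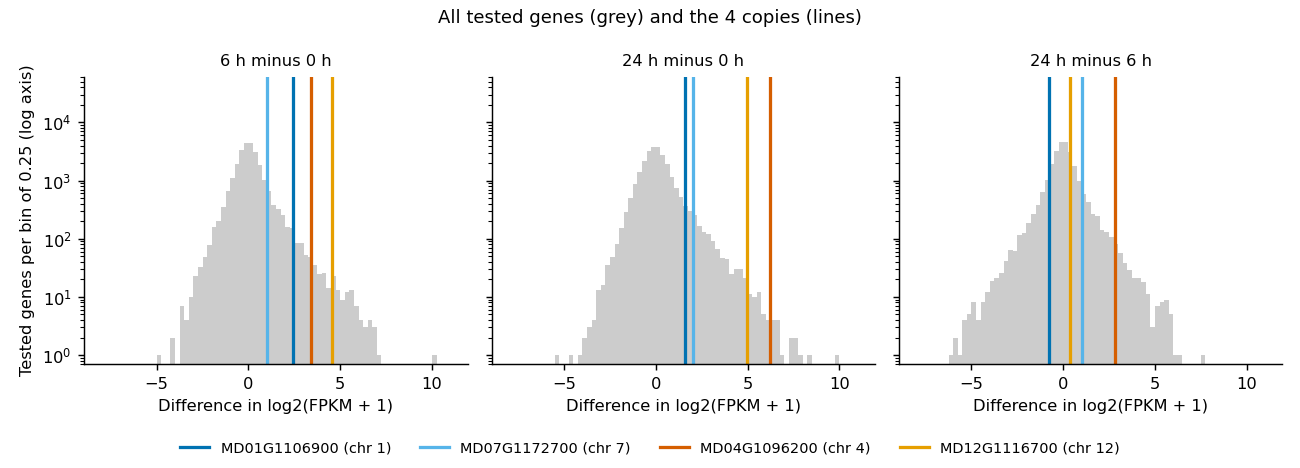
Number of tested genes by their difference in log2(FPKM + 1), in bins of 0.25 on a log count axis (grey), for the 3 comparisons, with the PAL copies as coloured lines. MD04G1096200 at 24 h against 0 h lies among the highest rises, at 6.24, while the lines at 24 h against 6 h fall on both sides of 0.

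The order of the copies turned over during the day. At 0 h MD01G1106900 was the highest and MD04G1096200 the lowest copy in every library, and MD12G1116700 and MD07G1172700 between them overlapped. At 6 h the order was MD12G1116700, MD01G1106900, MD04G1096200 and MD07G1172700 in each of the 3 libraries, and the libraries of neighbours in this order did not overlap. At 24 h it was MD04G1096200, MD12G1116700, MD01G1106900 and MD07G1172700 in each of the 3 libraries. The FPKM ranges of MD04G1096200 and MD12G1116700 overlapped at 24 h, with the third library the highest for both, but within a library MD04G1096200 stood at 1.23 to 1.29 times MD12G1116700. In rank among all genes listed, MD04G1096200 had 15361 genes above it in mean FPKM before light, then 1527 (6 h) and 108 (24 h). MD01G1106900 had 6275, 1007 and 2304.

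The make-up of the summed FPKM of the 4 copies shifted with this order. MD01G1106900 made up 39.1% ± 3.19 of the summed FPKM of the copies in the 0 h libraries, 20.1% ± 1.19 in those of 6 h and 5.80% ± 1.29 in those of 24 h (SD, n = 3 each). MD07G1172700 went from 22.4% ± 2.68 over 4.45% ± 0.694 to 4.52% ± 0.326. The chromosome 1 and 7 copies together thus gave way to those of chromosomes 4 and 12. MD12G1116700 held 26.2% ± 6.06 at 0 h, 61.3% ± 2.29 at 6 h and 39.8% ± 1.08 at 24 h. MD04G1096200 held 12.4% ± 1.64 and 14.1% ± 0.675 at 0 h and 6 h, and 49.9% ± 0.720 at 24 h. At 24 h the share of MD04G1096200 ranged from 49.3% to 50.7% over the libraries. That of MD01G1106900 was 4.34% in the third 24 h library and averaged 6.53% without it. The summed level of the copies was 48.3 ± 3.07, 517.8 ± 25.2 and 1063 ± 228 FPKM (SD, n = 3 each), or 0.00728%, 0.0773% and 0.140% of the summed FPKM of all genes. Without the third 24 h library the sum at 24 h was 932.2 FPKM. Sums and shares are descriptions and were not tested.

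**Figure D4:**
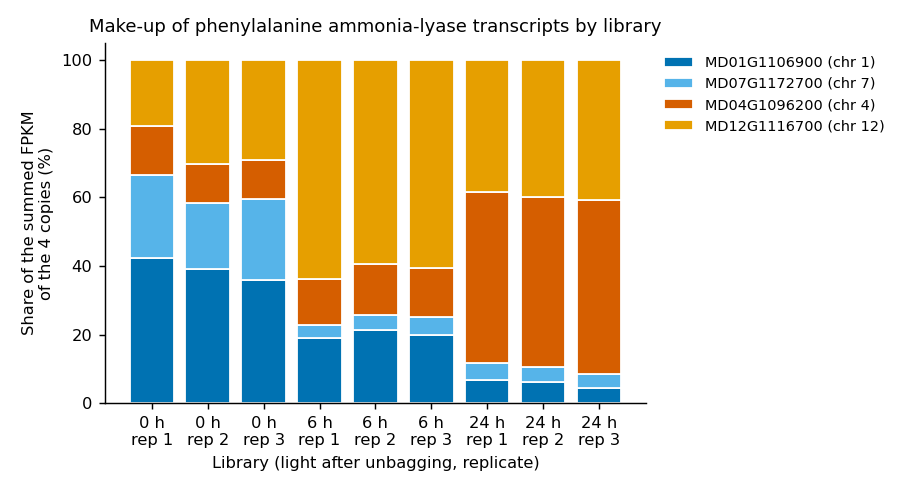
Share of each PAL copy in the summed FPKM of the 4 copies, in percent, for every library. MD01G1106900 leads at 0 h (35.9% to 42.3%), MD12G1116700 at 6 h (59.5% to 63.9%) and MD04G1096200 at 24 h (49.3% to 50.7%).

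Whether copies changed unequally was tested on the log2 ratio of their FPKM within a library, in which depth and library scaling cancel. All 6 ratios among the 4 copies differed between the times by an exact permutation test over all 280 ways of putting the 9 libraries into 3 groups of 3, each with p = 0.00357 (0.00357 after Benjamini-Hochberg adjustment over the 6 ratios). This is the smallest p that the test can give. The 6 ratios are built from the same 4 copies and the same 9 libraries, so they are not 6 independent results. How often ratios between other genes differ in this way was not tested. With 72.7% of all genes in the fit passing the moderated F-test, differing ratios may be common outside these copies too. In the chromosome 1 and 7 pair, MD01G1106900 stood at 1.77 times MD07G1172700 in the mean of the 0 h libraries, at 4.57 times at 6 h and at 1.27 times at 24 h. The log2 ratio was thus 1.37 higher at 6 h than at 0 h (SE 0.165) and fell by 1.85 from 6 h to 24 h (SE 0.192), and the ratios of no pair of times overlapped. In the third 24 h library the ratio was 1.02, so these copies were almost level there.

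In the chromosome 4 and 12 pair the order reversed. MD04G1096200 stood at 0.505 times MD12G1116700 at 0 h (libraries 0.378 to 0.744), at 0.231 times at 6 h (0.210 to 0.247) and at 1.25 times at 24 h (1.23 to 1.29). The change of the log2 ratio was -1.06 from 0 h to 6 h (SE 0.324) and 2.44 from 6 h to 24 h (SE 0.0737). The widest shift among all ratios was between MD01G1106900 and MD04G1096200. The former stood at 3.17 times the latter at 0 h, at 1.42 times at 6 h and at 0.116 times at 24 h, a change of -4.79 log2 units over the day (SE 0.218). MD07G1172700 to MD12G1116700 was the ratio that moved least after 6 h, by 0.66 (SE 0.176).

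**Figure D5:**
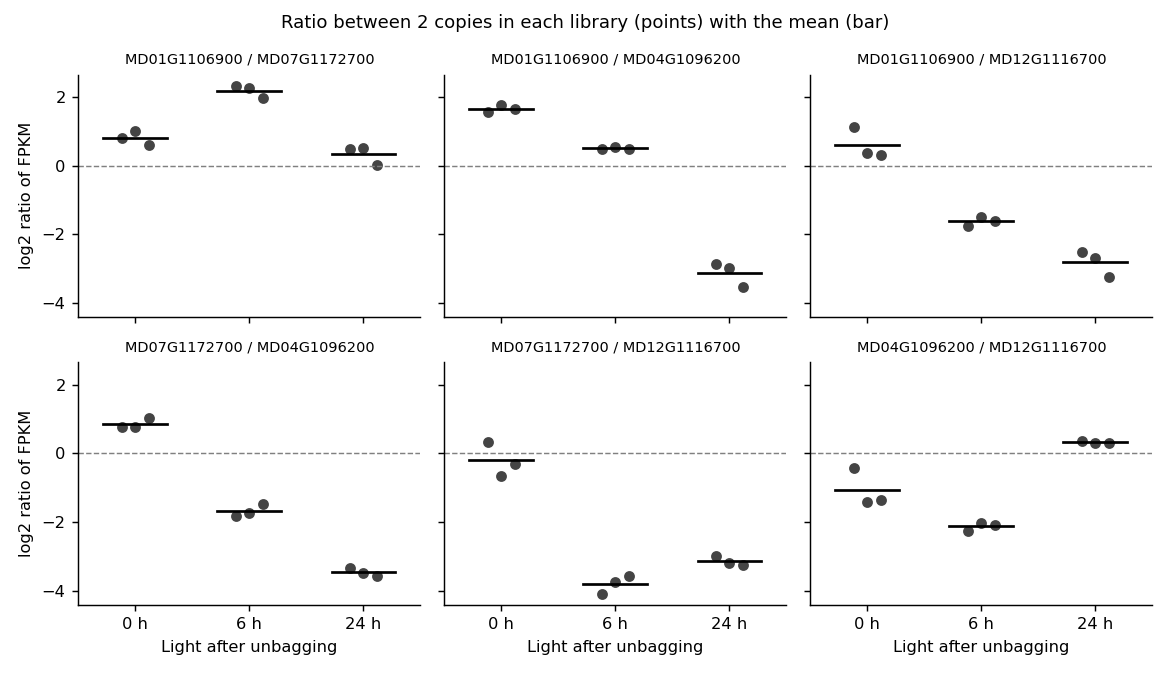
log2 ratio of the FPKM of 2 PAL copies in each library (points) with the mean (bar), for the 6 pairs of copies by time of light; the dashed line marks equal levels. MD04G1096200 over MD12G1116700 falls to a mean of -2.12 at 6 h and lies at 0.33 at 24 h, and MD01G1106900 over MD07G1172700 is highest at 6 h, at 2.18.

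Over the 9 libraries, log2(FPKM + 1) of MD04G1096200 and MD07G1172700, from different pairs of homeologous chromosomes, was the closest pair of profiles (Pearson r = 0.984). The least close were MD01G1106900 and MD07G1172700, which lie on homeologous chromosomes (r = 0.647). MD04G1096200 and MD12G1116700 had r = 0.917. These are descriptions over 3 times of 3 libraries each, which share their library and depth between copies. MD04G1096200 and MD07G1172700 were called higher in all 3 comparisons, as were 0.863% of the tested genes. MD01G1106900 and MD12G1116700 were called higher at both light times and in neither direction between them, as were 2.49%.

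The genes with the most similar profile were sought for the copies with the highest mean level. For MD04G1096200 it was MD17G1263600 (Pearson r = 0.9991 over the 9 libraries), at 23.0 ± 0.590, 73.0 ± 5.93 and 189.0 ± 31.6 FPKM (SD, n = 3 each). Its rises, 1.62 and 2.97 log2 units against 0 h, were smaller than those of the PAL copy, since r measures the shape of a profile and not its size. For MD12G1116700 it was MD13G1028000 (r = 0.9981), at 44.5 ± 5.65, 322.8 ± 3.99 and 349.7 ± 43.9 FPKM (SD, n = 3 each). The deposited table names neither gene, and 133 and 60 genes reached r of at least 0.99 with the respective copy.

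The gene lengths recovered from the FPKM steps were alike among the copies, at 2543 bases for MD01G1106900, 2729 for MD07G1172700, 2630 for MD04G1096200 and 2399 for MD12G1116700, against a median of 1533 bases over the tested genes. Depth was ample for the comparisons of times: the smallest value behind any of these levels was 249 reads, for MD04G1096200 in the third 0 h library, and the largest 28484 reads, for the same copy in the third 24 h library. How reads shared by similar copies were assigned is not given in the sources used here, so part of the reads of one copy may belong to another. The strand setting is not given either, so reads of an overlapping gene cannot be told apart.

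Among the 24 loci next to the copies by identifier, 3 on each side, 8 had no reads in any library and 11 were tested. Of these, 2 were called higher at 6 h than at 0 h and lower at 24 h than at 6 h (log2 differences of -1.98 and -1.77). Both passed the filter on low values through their 6 h level alone, so these counts are not set against those of all genes. Another of the 11 was called higher at 24 h against 0 h, as were 11.9% of all tested genes, and against 6 h, as were 8.66%. This locus was singled out with its values known and is the one that follows MD04G1096200. It is 261 bases long and went from 1.22 ± 0.514 and 1.49 ± 0.306 FPKM in the 0 h and 6 h libraries to 33.2 ± 6.19 in those of 24 h (SD, n = 3 each), a rise of 3.96 log2 units against 0 h (limma adjusted p = 7.44e-08). At 6 h, where MD04G1096200 had already risen, it differed from 0 h by 0.19 (limma adjusted p = 0.445). That comparison rests on few reads, 17 in all at 0 h and 21 at 6 h, so a small change could be missed. Whether its reads come from the same transcripts as those of MD04G1096200 was not tested.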

How the data were processed

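Peel RNA of 9 libraries was analysed from 1 deposited table of FPKM per gene. The authors computed the FPKM with HISAT2 and Cufflinks among their tools, per the submitters' processing notes. Tool versions, annotation, genome build, strand setting and filters were not given in the sources used here. Per the labels' protocols, Trizol was used for total RNA, and mRNA libraries followed Illumina protocols. None of the identifiers occurs in the RefSeq gene table at hand (51804 genes, 0 matches).

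The FPKM were put on a log2 scale with a pseudocount of 1 and tested in limma 3.58.1 (R 4.3.3) with a variance trend, for the 25362 genes averaging at least 1 FPKM; 1 mean per time was fitted to all 9 libraries (6 residual degrees of freedom). For a call, p adjusted over all tested genes (Benjamini-Hochberg) had to be under 0.05 and the log2 difference at least 1 in size. All adjusted p-values are limma's unless another test is named. Whole reads and gene lengths were recovered from the FPKM steps. For all 37142 genes above 0 a length from 50 to 20000 bases was found that gave whole reads. These rebuilt the FPKM to within a relative 6.91e-08, and 100% of the values above 0 came out whole to within 0.1 read. Such closeness follows from the search, which takes the shortest length that gives whole reads, and is no separate check. Reads counted in this way may be read pairs. Both procedures were tested on simulated data. No simulated library had a wider spread than the others, as the third 24 h library had. The recovery was scored only on genes with reads in most of the simulated libraries. The named genes are the 4 copies and, for each of the 2 highest, the tested gene with the highest Pearson r. The copies, tests and alternatives were chosen with earlier results of these data known.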

Additional observations from a re-analysis of the deposited data

Results flagged for a closer look

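For 3 of the 4 copies the level at 24 h differed from that at 6 h, by the direct test between these times. Hours of light, time since unbagging and time of day cannot be told apart in that comparison. MD04G1096200 was higher at 24 h by 2.82 log2 units (limma adjusted p = 1.18e-07) and MD07G1172700 by 1.02 (limma adjusted p = 0.000344). MD01G1106900 went the other way, with -0.79 (limma adjusted p = 2.26e-05), which is under the size limit of a call. Each direction was seen in 3 of 3 libraries, since the libraries of both times did not overlap. The same held for 30.8% of the tested genes upward and 28.5% downward. MD12G1116700, whose difference was not resolved, also lay higher at 24 h without overlap. With the adjusted p alone, 26.1% of all tested genes differed upward and 23.6% downward.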

How the results depend on the processing

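No value turned its direction in any alternative. Of 252 alternative log2 differences 239 kept their side of the threshold, and no call was lost in a copy other than MD07G1172700. For that copy the step from 0 h to 6 h was 0.83 with a pseudocount of 5, 0.94 after quantile normalization, 0.97 with summed reads as denominator and 0.88 to 1.16 with 1 library left out. Its step from 6 h to 24 h was 0.91, 0.85 and 0.87 under the same settings, 0.83 with sample weights, 0.90 by limma-voom on reads and 0.88 to 1.16 with 1 library left out. The copies called higher at 6 h than at 0 h fell from 4 to 3 in the first 3 of these settings and without the second 0 h or the third 6 h library. In all 5 settings the copies called between 6 h and 24 h fell from 2 to 1, and to between 1 and 2 with 1 library left out. With the adjusted p alone MD01G1106900 was called lower at 24 h than at 6 h, at -0.79, which made 3 copies. A larger pseudocount shrinks differences of low genes by construction; for the other lost calls the cause was not tested. Summed reads as denominator put the median of all genes at -0.18 at 24 h against 0 h and -0.14 against 6 h, and limma-voom, on the same totals, at -0.22 and -0.17. Relative to that median, with summed reads, the copies differed by 1.58 to 6.21 at 24 h against 0 h and by -0.80 to 2.80 against 6 h. Shares of reads in place of FPKM gave 4.87% for MD07G1172700, 51.7% for MD04G1096200 and 37.6% for MD12G1116700 at 24 h, and 15.02% for MD04G1096200 at 6 h, since reads are not divided by length. Same-numbered libraries did not deviate together (r from -0.06 to 0.08, and 1 of 9 libraries correlated best with its own number). The replicate block left all calls in place, with 2 copies called between 6 h and 24 h, MD04G1096200 at 2.82 (limma adjusted p = 1.3e-06), and each ratio at an exact permutation p of 0.0278, the smallest that 36 splits within numbers allow.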
